A study of Mus musculus with 12 samples.

Results

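Ass1, Crot, Cib2, Fxyd4 and Slc37a2 are 5 mouse genes of metabolism and ion handling that were higher in ear skin 1 day after a vitamin D ointment than 1 day after saline. They were taken by symbol from the deposited tables and are 5 of 23234 gene symbols. They were chosen by their FPKM in wild type ears, higher under Oxarol than under phosphate-buffered saline (PBS), so that difference is described here and not tested. The question was which of the 5 were also high in ointment-treated skin of mice labelled as lacking the vitamin D receptor in keratinocytes.

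RNA of ear skin was sequenced in 12 libraries, 3 in each of 4 groups. In VDRcKO_Oxarol, the mice carry K5-Cre;VDR f/f: a Cre recombinase under the keratin 5 promoter, active in basal keratinocytes and their descendants, cuts a floxed vitamin D receptor gene, and other skin cells keep the receptor. These ears received 100 mg of Oxarol ointment with 2.5 µg of maxacalcitol, an active vitamin D3 analogue. WT_Oxarol ears are wild type C57BL/6J with the same ointment, WT_PBS ears are wild type with PBS, and WT_untreated ears are wild type with nothing applied. Treated ears were labelled as taken 1 day after application, and all mice as 8 to 12 weeks old. PBS is not the base of the ointment, and no VDRcKO ear was without ointment. What the genotype does on its own and what the ointment does in that genotype therefore cannot be told apart.

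Maxacalcitol acts through the vitamin D receptor, a nuclear receptor that pairs with the retinoid X receptor and binds repeated core hexamers in DNA. In the epidermis the pathway is known for effects on keratinocyte growth and differentiation and for the induction of Cyp24a1, which breaks down active vitamin D. Ass1 makes argininosuccinate from citrulline and aspartate, the step before arginine. Crot moves medium-chain acyl groups from coenzyme A to carnitine in peroxisomes. Cib2 is a calcium and integrin binding protein required in mouse for the mechanotransduction of inner ear hair cells. Fxyd4 belongs to a family of small membrane proteins that modulate the sodium pump. Slc37a2 is a sugar-phosphate and phosphate exchanger of the endoplasmic reticulum, known to be abundant in macrophages.

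The deposited values were taken as FPKM, a fragment count divided by transcript length and library size. From the value that 1 fragment is worth, the estimated depth was 5.02 to 7.35 M fragments (M for mega) in VDRcKO_Oxarol, 8.05 to 26.4 M in WT_Oxarol, 14.0 to 123 M in WT_PBS and 11.1 to 15.9 M in WT_untreated, so the 3 VDRcKO_Oxarol libraries were the shallowest. Keratinocyte genes were present in every library, with Krt5 at 445 to 708 FPKM. Vdr averaged 22.2 ± 3.72 FPKM in the libraries labelled VDRcKO_Oxarol and 7.20 ± 0.611 FPKM in WT_Oxarol (SD, n = 3 each), higher and not lower. Such a sum over all exons, in cells with and without Cre, does not check the deletion. Cyp24a1 followed the labels, at 0 to 0.271 FPKM in VDRcKO_Oxarol and 66.2, 599 and 458 FPKM in WT_Oxarol replicates 1 to 3. Several cell type marker lists differed between VDRcKO_Oxarol and WT_Oxarol. Of 16 hair follicle genes tested, 13 passed the test as higher in VDRcKO_Oxarol than in WT_Oxarol (limma, adjusted p under 0.05), with summed levels of 373 to 1278 FPKM in VDRcKO_Oxarol and 147 to 288 FPKM in WT_Oxarol. The 17 listed in the files were all above 0 in VDRcKO_Oxarol, and up to 4 were at 0 in a WT_Oxarol library. Summed hair follicle levels overlapped the groups without ointment. They reached 522 FPKM in WT_PBS replicate 3 and 403 FPKM in WT_untreated replicate 3, above the 373 FPKM of VDRcKO_Oxarol replicate 3. Macrophage and monocyte genes passed in 8 of 13 cases, all higher in VDRcKO_Oxarol, and fibroblast genes in 3 of 6. Cartilage genes passed as higher in 3 of 5 cases, T cell genes in 2 of 4, Langerhans cell genes in 1 of 3 and endothelial genes in 1 of 5, and 1 of 7 sebaceous and 1 of 4 melanocyte genes passed as lower. No suprabasal keratinocyte, neutrophil, mast cell, muscle or adipocyte gene of the lists passed there. Over all genes tested, 8.71% passed as higher and 4.43% as lower in VDRcKO_Oxarol than in WT_Oxarol. The 6 basal keratinocyte genes summed to 2918 to 3175 FPKM in VDRcKO_Oxarol and 2746 to 3916 FPKM in WT_Oxarol, and none passed. The part of these lists in the results below was not tested unless a value is given beside them. In whole skin, fewer cells of a type and less RNA per cell cannot be told apart.

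The libraries labelled VDRcKO_Oxarol split the 5 genes. Ass1, Crot, Cib2 and Fxyd4 had lower values there than in WT_Oxarol, and Slc37a2 was highest in VDRcKO_Oxarol. Ass1, Crot and Fxyd4 lay between WT_Oxarol and the groups without ointment with no overlap, Ass1 only just. Cib2 lay within the range of WT_PBS. Differences were tested as log2(FPKM + 1) with limma over 14059 genes and 12 libraries, and called at a Benjamini-Hochberg adjusted p under 0.05. Between VDRcKO_Oxarol and WT_Oxarol, 4 of the 5 passed, 3 lower and 1 higher, and Fxyd4 fell short (limma, adjusted p = 0.0515). Of all genes, 13.1% passed either way there, 4.43% lower and 8.71% higher. That balance depended on scaling: 1225 genes were higher and 623 lower as reported, 820 and 1292 with quantile normalization. All 5 had no overlap of libraries between these groups, as had 42.2% of all genes. This comparison shares WT_Oxarol with the one that chose the genes and is not independent of the choice. The Ass1 and Cib2 calls held under each of 21 alternatives, while that of Crot was lost under 14 and that of Slc37a2 under 18. VDRcKO_Oxarol libraries all have codes of a second series, which in wild type holds only replicate 3 of each group. Label and code series therefore cannot be fully told apart.

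The comparison of VDRcKO_Oxarol with WT_untreated shares no library with the choice in its means, but its spread is estimated from all 12 libraries. There 3 of the 5 genes passed, Slc37a2 and Fxyd4 higher and Cib2 lower, and 19.0% of all genes passed either way, 12.8% higher and 6.2% lower. Libraries of the 2 groups did not overlap for any of the 5 genes, against 37.9% of all genes. Against WT_PBS, which also took part in the choice, 1 of the 5 passed, Slc37a2, where the background was 16.3% either way, 10.8% higher and 5.49% lower. There 4 of the 5 genes, all but Cib2, had no overlap, against 47.4% of all genes. Between WT_Oxarol and WT_untreated, which shares WT_Oxarol with the choice, all 5 passed as higher, against 0.989% of all genes higher and 1.31% either way. Few genes passed between WT_PBS and WT_untreated, which with 3 libraries each does not show these groups to be alike. The 5 were chosen for high values in WT_Oxarol, so their passing over WT_untreated was largely set by the choice. The p-values given for that comparison below are a description, not independent support. Between WT_Oxarol and WT_PBS the 5 did not overlap, as 7.53% of all genes did not with WT_Oxarol higher, and nothing is read from that count. Between WT_PBS and WT_untreated 0 of the 5 passed, against 0.00711% of all genes, which is 1 gene.

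**Figure D1:**
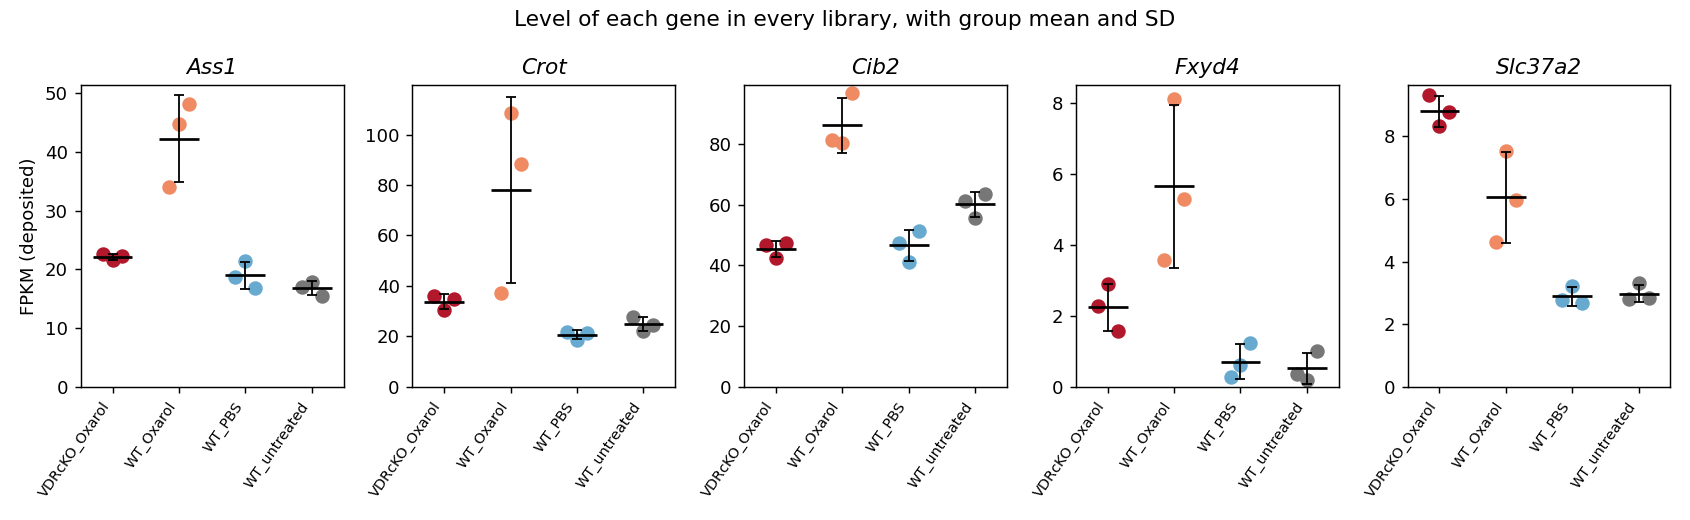
Deposited FPKM (linear axis from 0) of the 5 genes in the 12 libraries, in 4 groups; points are libraries, horizontal bars group means and error bars 1 SD (n = 3). Ass1, Crot, Cib2 and Fxyd4 are highest in WT_Oxarol, while Slc37a2 is highest in VDRcKO_Oxarol, at 8.32 to 9.31 FPKM.

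Ass1 had 22.7, 21.6 and 22.2 FPKM in VDRcKO_Oxarol, 33.9, 44.7 and 48.1 FPKM in WT_Oxarol, 18.7, 21.4 and 16.8 FPKM in WT_PBS, and 16.9, 17.9 and 15.5 FPKM in WT_untreated. All WT_Oxarol libraries lay above all others, VDRcKO_Oxarol lay just above both groups without ointment, and WT_PBS and WT_untreated overlapped. The group means were 22.2 ± 0.524 FPKM in VDRcKO_Oxarol, 42.2 ± 7.42 FPKM in WT_Oxarol, 19.0 ± 2.31 FPKM in WT_PBS and 16.8 ± 1.22 FPKM in WT_untreated (SD, n = 3 each). Ass1 thus averaged 2.23 times as much in WT_Oxarol as in WT_PBS, which is the difference it was chosen for.

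In VDRcKO_Oxarol, Ass1 fell relative to WT_Oxarol, by 0.89 ± 0.13 in log2 units with its SE (limma, adjusted p = 0.00592). This held under each of 21 alternatives, with adjusted p between 0.00258 and 0.0374. Between VDRcKO_Oxarol and WT_PBS the difference was 0.22 ± 0.13 on the log2 scale, with a 95% interval from -0.06 to 0.50 (limma, adjusted p = 0.247). Against WT_untreated it was 0.38 ± 0.13, with an interval from 0.10 to 0.67 (limma, adjusted p = 0.0598). That value passed once WT_Oxarol replicate 1, which takes part only in the estimate of the spread, was left out (limma, adjusted p = 0.0273), and adjusted p lay between 0.0273 and 0.139 over the 21 alternatives. WT_Oxarol stood 1.27 ± 0.13 above WT_untreated on the log2 scale (limma, adjusted p = 0.00157), in a comparison not independent of the choice.

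Ass1 shares part of its sequence with its processed pseudogene Gm5424, so reads of that part may have been counted for either. Of 2359 stretches of 50 bases in Ass1 transcripts, 911, or 38.6%, also occur in Gm5424. The Ass1 coding sequence on chromosome 2 and the Gm5424 transcript on chromosome 10 (GENCODE annotation of GRCm38) are identical at 1233 of 1239 aligned bases, or 99.5%, with 1 identical run of 398 bases. The stretch of 60 bases in which they differ most, bases 370 to 429 of the Ass1 coding sequence, is shown because it holds 2 of the 6 differences within the aligned coding sequence. Capitals mark the bases that differ.
Ass1: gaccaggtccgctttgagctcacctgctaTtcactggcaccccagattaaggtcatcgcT
Gm5424: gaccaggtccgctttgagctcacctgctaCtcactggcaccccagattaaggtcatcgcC
Gm5424 had 5.60, 5.48 and 4.88 FPKM in VDRcKO_Oxarol, 7.74, 10.7 and 11.7 FPKM in WT_Oxarol, 4.97, 5.39 and 4.01 FPKM in WT_PBS, and 3.99, 4.20 and 3.27 FPKM in WT_untreated. It therefore had the same order of groups as Ass1, and its level was 0.211 to 0.265 times that of Ass1 in every library. Gm5424 too fell in VDRcKO_Oxarol relative to WT_Oxarol, by 0.79 ± 0.15 on the log2 scale (limma, adjusted p = 0.0143). How reads of the shared part were divided between them is uncertain. Their sum was 27.1 to 28.3 FPKM in VDRcKO_Oxarol, 41.7 to 59.8 FPKM in WT_Oxarol, 20.8 to 26.8 FPKM in WT_PBS and 18.8 to 22.1 FPKM in WT_untreated, with the same order of groups.

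Among 21 other tested genes of arginine and urea cycle metabolism, 0 passed between WT_Oxarol and WT_PBS and 0 between WT_Oxarol and WT_untreated. The background share of genes that passed was 0.306% and 1.31%. Asl, which splits argininosuccinate in the step after Ass1, had 21.4, 20.1 and 18.3 FPKM in VDRcKO_Oxarol, 21.4, 22.3 and 21.9 FPKM in WT_Oxarol, 23.4, 23.3 and 24.2 FPKM in WT_PBS, and 27.1, 27.5 and 19.7 FPKM in WT_untreated. It did not differ beyond the spread in VDRcKO_Oxarol against WT_Oxarol, at -0.13 ± 0.12 on the log2 scale (limma, adjusted p = 0.465). Between VDRcKO_Oxarol and WT_Oxarol, 1 of the 21 passed, the spermidine synthase gene Srm, which was lower at 57.6 to 62.9 FPKM in VDRcKO_Oxarol and 70.7 to 112 FPKM in WT_Oxarol. The median log2 difference was 0.20 for the 21 genes and 0.08 for all genes, of which 13.1% passed.

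Between VDRcKO_Oxarol and WT_untreated, 3 of the 21 rose and 2 fell, where 12.8% of all genes were higher and 6.2% lower. Slc7a1, a transporter that brings arginine into cells, rose by 0.68 ± 0.14 on the log2 scale (limma, adjusted p = 0.0108), with 2.71, 2.74 and 2.54 FPKM in VDRcKO_Oxarol and 1.15, 1.71 and 1.03 FPKM in WT_untreated. Azin1, an antizyme inhibitor that favours polyamine synthesis, and Ddah1, which breaks down methylated arginines, rose by 0.52 and 0.42. Glul, glutamine synthetase, fell by 0.73 ± 0.16 (limma, adjusted p = 0.0139), and Gatm, which starts creatine synthesis from arginine, fell by 0.35. The median of the 21 genes was 0.14, beside 0.08 for all genes. Under quantile normalization the count was 2 higher and 4 lower.

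The 250 bases before the RefSeq transcription start of Ass1 (chr2:31470020-31470269, plus strand, GRCm38.p6) are shown because they hold 1 of the core hexamers that the vitamin D receptor pairs recognise, in capitals at position -231 from the start.
Ass1 upstream: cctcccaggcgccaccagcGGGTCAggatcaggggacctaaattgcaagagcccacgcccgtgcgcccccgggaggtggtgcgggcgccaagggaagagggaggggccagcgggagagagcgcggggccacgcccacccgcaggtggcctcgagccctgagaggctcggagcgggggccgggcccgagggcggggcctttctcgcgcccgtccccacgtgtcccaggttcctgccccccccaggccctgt
The hexamers searched for, on both strands, were AGGTCA and its variants with GTT in the middle (AGTTCA), with G first (GGGTCA) and with both changes (GGTTCA). Of these, at least 1 was held by 43.7% of 32851 promoter windows from 250 bases before to 50 bases after a start. A direct repeat of 2 of these hexamers with NNN between them, the classical receptor element, was found in none of the 5 genes' windows and in 0.0396% of all windows. A match or its absence describes the letters of this window only. Among the other genes, Crot and Fxyd4 had no hexamer, and Cib2 had AGTTCA on the opposite strand 2 bases after the start.

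Crot had 35.8, 30.3 and 34.9 FPKM in VDRcKO_Oxarol, 37.0, 109 and 88.3 FPKM in WT_Oxarol, 21.8, 18.7 and 21.4 FPKM in WT_PBS, and 27.6, 22.3 and 24.4 FPKM in WT_untreated. WT_Oxarol replicate 1 lay close to the highest VDRcKO_Oxarol library, while the other two WT_Oxarol libraries were far above every other library. VDRcKO_Oxarol lay above both groups without ointment with no overlap, and WT_PBS lay below WT_untreated. The means were 33.7 ± 2.98 FPKM in VDRcKO_Oxarol, 78.0 ± 36.9 FPKM in WT_Oxarol, 20.6 ± 1.72 FPKM in WT_PBS and 24.8 ± 2.69 FPKM in WT_untreated (SD, n = 3 each). WT_Oxarol replicate 1 also had the lowest value of its group for Cyp24a1, Ass1, Fxyd4 and Slc37a2.

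Crot fell in VDRcKO_Oxarol relative to WT_Oxarol by 1.06 ± 0.30 on the log2 scale (limma, adjusted p = 0.0456). The direction was the same under each of 21 alternatives, and the call was lost under 14 of them. Without WT_Oxarol replicate 2 the difference was -0.75 (limma, adjusted p = 0.139), without WT_Oxarol replicate 3 it was -0.90 (limma, adjusted p = 0.121), and without WT_Oxarol replicate 1 it was -1.52 (limma, adjusted p = 0.00114). Against the groups without ointment, Crot in VDRcKO_Oxarol did not pass. The difference was 0.68 ± 0.30 from WT_PBS, with a 95% interval from 0.01 to 1.35 (limma, adjusted p = 0.141), and 0.43 ± 0.30 from WT_untreated, with an interval from -0.24 to 1.10 (limma, adjusted p = 0.331). Both passed when WT_Oxarol replicate 1, which enters them only through the spread, was left out (limma, adjusted p = 0.00931 from WT_PBS and 0.0351 from WT_untreated). Adjusted p over all alternatives lay between 0.00825 and 0.372 from WT_PBS, and between 0.0351 and 0.586 from WT_untreated. Besides that, the first passed when only its own 2 groups were fitted, and no other of the 21 alternatives gave a call. WT_Oxarol stood 1.48 ± 0.30 above WT_untreated (limma, adjusted p = 0.0461), a call lost under 15 of 21 alternatives, among them leaving out WT_Oxarol replicate 2 (1.18, adjusted p = 0.159) or replicate 3 (1.33, adjusted p = 0.146).

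Of 28 other genes of acyl-carnitine exchange and peroxisomal fatty acid oxidation tested, 0 passed between WT_Oxarol and either group without ointment, where 0.306% of all genes passed against WT_PBS and 1.31% against WT_untreated. Crat, which moves acetyl groups to carnitine, had 25.1 to 32.2 FPKM in VDRcKO_Oxarol, 21.4 to 27.8 FPKM in WT_Oxarol, 17.9 to 21.9 FPKM in WT_PBS and 16.2 to 25.8 FPKM in WT_untreated. Its difference between VDRcKO_Oxarol and WT_Oxarol was 0.18 ± 0.17 (limma, adjusted p = 0.502), and those 2 groups overlapped. Between VDRcKO_Oxarol and WT_Oxarol, 2 of the 28 rose, Cpt1c, a brain-type carnitine palmitoyltransferase, by 0.45 and Pex5, the import receptor for peroxisomal enzymes, by 0.42. The median of the list was 0.13, against 0.08 for all genes, of which 8.71% passed as higher.

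Between VDRcKO_Oxarol and WT_untreated, 3 of the 28 rose and 2 fell, where 12.8% of all genes were higher and 6.2% lower. Among those that rose, Cpt1c differed by 0.47 and Pex5 by 0.42. Pex7, a second import receptor, fell by 0.36 ± 0.07 (limma, adjusted p = 0.00884) with 22.8, 22.8 and 24.6 FPKM in VDRcKO_Oxarol and 31.3, 29.7 and 29.7 FPKM in WT_untreated. Amacr, a racemase needed for branched-chain fatty acids, fell by 0.35. These higher calls depended on scaling: with quantile normalization 0 of the 28 were higher and 4 lower against WT_untreated, and 0 higher and 1 lower against WT_Oxarol.

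Cib2 had 46.5, 42.5 and 47.3 FPKM in VDRcKO_Oxarol, 81.4, 80.2 and 96.6 FPKM in WT_Oxarol, 47.4, 41.0 and 51.3 FPKM in WT_PBS, and 61.3, 55.5 and 63.6 FPKM in WT_untreated. It was the gene whose VDRcKO_Oxarol libraries lay within the range of WT_PBS. Every WT_Oxarol library was above all others, and WT_untreated lay above VDRcKO_Oxarol and WT_PBS without overlap. The means were 45.4 ± 2.59 FPKM in VDRcKO_Oxarol, 86.1 ± 9.16 FPKM in WT_Oxarol, 46.6 ± 5.20 FPKM in WT_PBS and 60.1 ± 4.15 FPKM in WT_untreated (SD, n = 3 each).

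Cib2 fell in VDRcKO_Oxarol relative to WT_Oxarol by 0.90 ± 0.10 on the log2 scale (limma, adjusted p = 0.00299), and this held under each of 21 alternatives, with adjusted p between 0.00123 and 0.0407. Against WT_PBS the difference was -0.03 ± 0.10, with a 95% interval from -0.26 to 0.20 (limma, adjusted p = 0.864). Against WT_untreated Cib2 fell by 0.40 ± 0.10 (limma, adjusted p = 0.0278). That call was lost under 8 of 21 alternatives, always with the same direction. Adjusted p was 0.0644, 0.0933 and 0.0547 (limma) without VDRcKO_Oxarol replicates 1, 2 and 3, and 0.0574 and 0.058 without WT_untreated replicates 1 and 3. The choice of reference also set the size of the wild type difference: WT_Oxarol averaged 1.85 times WT_PBS and 1.43 times WT_untreated. The difference from WT_untreated was 0.51 ± 0.10 (limma, adjusted p = 0.0466), with adjusted p between 0.0203 and 0.423 over the alternatives and the call lost under 15 of 21, among them leaving out any 1 WT_Oxarol or WT_untreated library. WT_PBS against WT_untreated gave -0.37 ± 0.10 (limma, adjusted p = 0.430).

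Exons of Cib2 share 227 bases with Sh2d7 on the other strand (GENCODE annotation of GRCm38), and the counting is not stated to use strand. Sh2d7 had at most 0.776 FPKM in any library, against at least 41.0 FPKM for Cib2. It had 0.197 to 0.311 FPKM in VDRcKO_Oxarol, 0.563 to 0.776 FPKM in WT_Oxarol, 0.307 to 0.341 FPKM in WT_PBS and 0.300 to 0.592 FPKM in WT_untreated. How reads of the shared bases were divided between Sh2d7 and Cib2 was not tested. Of 8 other tested genes of the CIB family and its partners, 0 passed between WT_Oxarol and either group without ointment. The share of all genes that passed was 0.306% against WT_PBS and 1.31% against WT_untreated. Cib1, a calcium and integrin binding relative, had 50.4, 45.0 and 38.9 FPKM in VDRcKO_Oxarol and 41.0, 42.0 and 41.2 FPKM in WT_Oxarol, which overlap, and differed by 0.10 ± 0.11 (limma, adjusted p = 0.557). Itga2b is the platelet integrin chain to which the CIB family was first linked. Of the 8, only Itga2b passed between VDRcKO_Oxarol and WT_Oxarol, where 13.1% of all genes passed. It fell by 0.44 ± 0.13 (limma, adjusted p = 0.0455), with 1.47, 1.19 and 1.34 FPKM in VDRcKO_Oxarol and 2.36, 1.90 and 2.26 FPKM in WT_Oxarol. Against WT_untreated, Myo7a, a hair cell myosin, rose by 0.55 in VDRcKO_Oxarol and Tmc4 fell by 0.50. The median of the 8 genes was 0.05, beside 0.08 for all genes, of which 12.8% passed as higher and 6.2% as lower.

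Fxyd4 was the lowest of the 5 genes on the FPKM scale, and its values rest on few fragments. It had 2.26, 2.89 and 1.56 FPKM in VDRcKO_Oxarol, 3.56, 8.09 and 5.29 FPKM in WT_Oxarol, 0.263, 0.613 and 1.24 FPKM in WT_PBS, and 0.367, 0.180 and 1.02 FPKM in WT_untreated. Groups with ointment did not overlap those without it, and VDRcKO_Oxarol lay below WT_Oxarol with no overlap. With a transcript of 550 bases these values correspond to an estimated 4, 6 and 4 fragments in VDRcKO_Oxarol, 24, 75 and 15 in WT_Oxarol, 2, 3 and 55 in WT_PBS, and 2, 1 and 4 in WT_untreated. That length was taken among annotated transcripts of 441 to 1199 bases because it brought the 9 libraries with fewer than 20 fragments closest to whole numbers, within 0.133. With the shortest transcript the VDRcKO_Oxarol values would stand for 2.74, 4.28 and 2.76 fragments, and with the longest for 11.3, 17.2 and 11.4.

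At the length of 550 bases, exact Poisson intervals (95%, counting error only) of single libraries overlapped between groups: they ran from 0.424 to 6.29 FPKM over the VDRcKO_Oxarol libraries, from 2.28 to 10.1 FPKM over WT_Oxarol and from 0.00456 to 2.62 FPKM over WT_untreated. Summed over libraries and divided by depth, VDRcKO_Oxarol held 4.65 times the fragments of WT_untreated, with an exact interval from 1.75 to 13.6, from 14 and 7 fragments. Against WT_PBS the ratio was 2.03, with an interval from 1.05 to 3.68, where 55 of the 60 WT_PBS fragments came from replicate 3. Against WT_Oxarol it was 0.360, with an interval from 0.191 to 0.630. The intervals of these ratios also hold for that length and cover counting error only.

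In the fit over all genes, Fxyd4 rose in VDRcKO_Oxarol relative to WT_untreated by 1.10 ± 0.30 on the log2 scale (limma, adjusted p = 0.0304). The call was lost under 7 of 20 alternatives, among them leaving out VDRcKO_Oxarol replicate 1 (adjusted p = 0.0783) or 2 (adjusted p = 0.0991) and WT_untreated replicate 1 (adjusted p = 0.0731) or 2 (adjusted p = 0.0756), and the direction was kept in all 20. Against WT_PBS the difference was 0.94 ± 0.30 (limma, adjusted p = 0.0547), which passed without WT_PBS replicate 3 (1.16, adjusted p = 0.041). Against WT_Oxarol it was -1.0 ± 0.30 (limma, adjusted p = 0.0515), which passed without WT_Oxarol replicate 1 (-1.25, adjusted p = 0.0412) and under 7 of 20 alternatives in all. Adjusted p lay between 0.0295 and 0.355 from WT_PBS and between 0.0219 and 0.160 from WT_Oxarol. WT_Oxarol exceeded WT_untreated by 2.11 ± 0.30 (limma, adjusted p = 0.0123), and the call was lost without WT_Oxarol replicate 2 (1.85, adjusted p = 0.0541) or 3 (2.12, adjusted p = 0.0623). Differences on the log2(FPKM + 1) scale understate the change of a gene this low.

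Of 19 other tested genes for FXYD proteins, the sodium pump and epithelial sodium transport, 0 passed between WT_Oxarol and either group without ointment. The share of all genes that passed was 0.306% against WT_PBS and 1.31% against WT_untreated. Fxyd3 was the most abundant family member at 266 to 542 FPKM over the 12 libraries, and its difference between VDRcKO_Oxarol and WT_Oxarol was -0.01 ± 0.20 (limma, adjusted p = 0.971). Between VDRcKO_Oxarol and WT_Oxarol, 3 of the 19 rose: Sgk1, a kinase that keeps sodium channels at the membrane, by 0.71 ± 0.15 (limma, adjusted p = 0.0193), the proton-potassium pump gene Atp12a by 1.15 and the sodium channel subunit Scnn1b by 0.56. Sgk1 had 96.4, 81.3 and 107 FPKM in VDRcKO_Oxarol and 71.7, 56.7 and 46.4 FPKM in WT_Oxarol. With quantile normalization only Sgk1 of these 3 passed. The median difference was 0.30 for the list and 0.08 for all genes, of which 8.71% passed as higher.

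Against WT_untreated, 3 of the 19 rose and 2 fell in VDRcKO_Oxarol, where 12.8% of all genes were higher and 6.2% lower. Fxyd1, Fxyd3, Fxyd6 and Fxyd7 did not pass. Among those that rose, Sgk1 differed by 0.83 and Fxyd5 by 0.54, and Fxyd2 and the sodium channel subunit Scnn1g fell by 0.57 and 0.56. The sodium pump's beta chains Atp1b1 and Atp1b3 differed from WT_untreated by -0.04 ± 0.20 (limma, adjusted p = 0.907) and -0.02 ± 0.11 (limma, adjusted p = 0.908). The median of the list was 0.07, beside 0.08 for all genes.

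**Figure D2:**
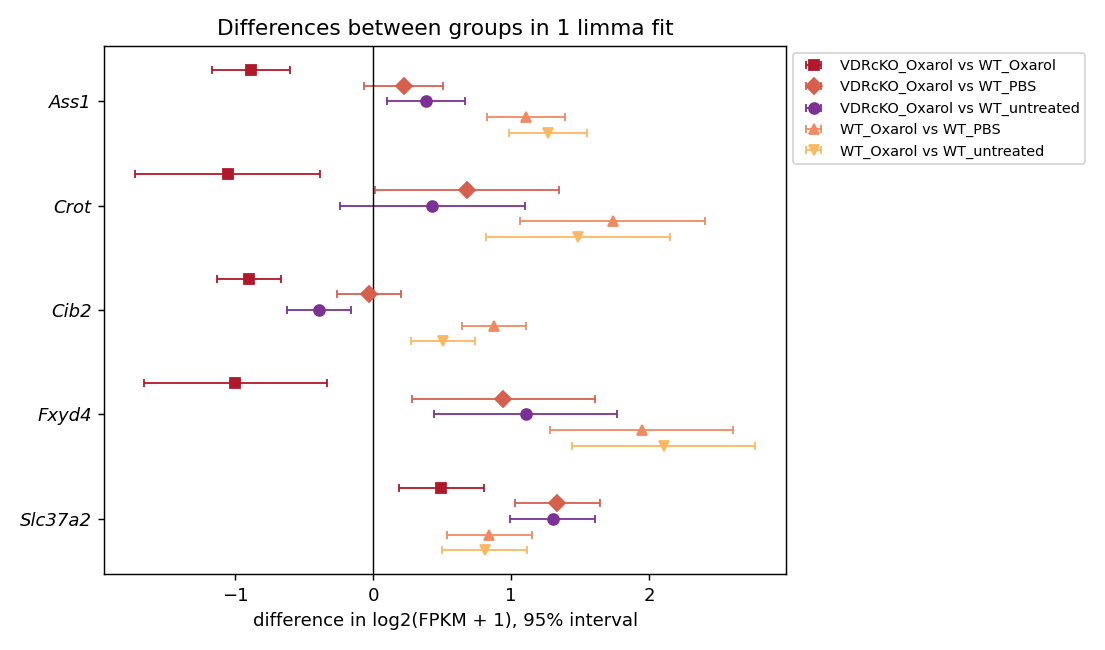
Differences in log2(FPKM + 1) between groups for the 5 genes from 1 limma fit of 12 libraries; symbols are estimates, bars 95% intervals, and positive values mean higher in the group named first. Ass1, Crot, Cib2 and Fxyd4 lie at -0.89 to -1.06 for VDRcKO_Oxarol against WT_Oxarol, and Slc37a2 at 0.49; WT_Oxarol against WT_PBS is the difference the genes were chosen for.

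Slc37a2 had 9.31, 8.32 and 8.77 FPKM in VDRcKO_Oxarol, 4.64, 7.54 and 5.97 FPKM in WT_Oxarol, 2.77, 3.22 and 2.67 FPKM in WT_PBS, and 2.79, 3.30 and 2.84 FPKM in WT_untreated. All VDRcKO_Oxarol libraries were above all WT_Oxarol libraries, which were above all libraries without ointment, and WT_PBS and WT_untreated overlapped. The means were 8.80 ± 0.494 FPKM in VDRcKO_Oxarol, 6.05 ± 1.45 FPKM in WT_Oxarol, 2.88 ± 0.291 FPKM in WT_PBS and 2.98 ± 0.280 FPKM in WT_untreated (SD, n = 3 each). In every library the value rests on at least 64.2 estimated fragments. Antisense Gm48081 shares exon bases with Slc37a2, and their reads there cannot be told apart without strand. Crot shares 166 exon bases with Gm37153 on the opposite strand and 39 with Gm27941 on the same strand. Strand would not separate reads of the latter.

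Slc37a2 rose in VDRcKO_Oxarol relative to WT_untreated, by 1.30 ± 0.14 on the log2 scale (limma, adjusted p = 0.0015), and this held under each of 21 alternatives, with adjusted p between 0.00101 and 0.0282. It rose relative to WT_PBS by 1.34 ± 0.14 (limma, adjusted p = 0.00104), in 20 of 21 alternatives. The exception was the fit of the second library code series alone, where WT_PBS has 1 library (1.42, adjusted p = 0.0608). Relative to WT_Oxarol it rose by 0.49 ± 0.14 (limma, adjusted p = 0.0436). That higher level was called in only 3 of 21 alternatives, although the direction was kept in all: without WT_Oxarol replicate 1 the difference was 0.34 (adjusted p = 0.113), without replicate 3 it was 0.50 (adjusted p = 0.0899), and without VDRcKO_Oxarol replicates 1, 2 and 3 it was 0.46, 0.53 and 0.50 (adjusted p = 0.122, 0.087 and 0.0981). WT_Oxarol exceeded WT_untreated by 0.81 ± 0.14 (limma, adjusted p = 0.028), lost under 8 of 21 alternatives, among them leaving out WT_Oxarol replicate 2 (0.66, adjusted p = 0.0992) or 3 (0.80, adjusted p = 0.101).

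Macrophage genes, like Slc37a2, were highest in VDRcKO_Oxarol. Fibroblast genes were too, summing to 3118 to 3826 FPKM in VDRcKO_Oxarol and 2037 to 2685 FPKM in WT_Oxarol. So were cartilage genes, at 66.9 to 68.9 FPKM in VDRcKO_Oxarol and 28.9 to 42.0 FPKM in WT_Oxarol. The 13 macrophage and monocyte genes summed to 1336, 1082 and 1089 FPKM in VDRcKO_Oxarol, 659, 732 and 853 FPKM in WT_Oxarol, 611, 610 and 692 FPKM in WT_PBS, and 728, 664 and 639 FPKM in WT_untreated, with 0 of the 13 at 0 in any library. Of the 13, 12 passed as higher in VDRcKO_Oxarol than in WT_untreated, with a median difference of 0.72, and 8 as higher than in WT_Oxarol, with a median of 0.51. The share of all genes higher was 12.8% against WT_untreated and 8.71% against WT_Oxarol. Between WT_Oxarol and either group without ointment 0 of the 13 passed, where 1.31% of all genes passed against WT_untreated and 0.306% against WT_PBS. The medians of the 13 were 0.23 from WT_untreated and 0.28 from WT_PBS. Slc37a2, chosen for its higher level in WT_Oxarol than in WT_PBS, differed by 0.81 and 0.84. Neutrophil genes summed to 78.2 to 132 FPKM in VDRcKO_Oxarol, 71.3 to 85.4 FPKM in WT_Oxarol, 42.0 to 94.8 FPKM in WT_PBS and 6.23 to 17.0 FPKM in WT_untreated. The part of any of these lists in the Slc37a2 values was not tested.

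**Figure D3:**
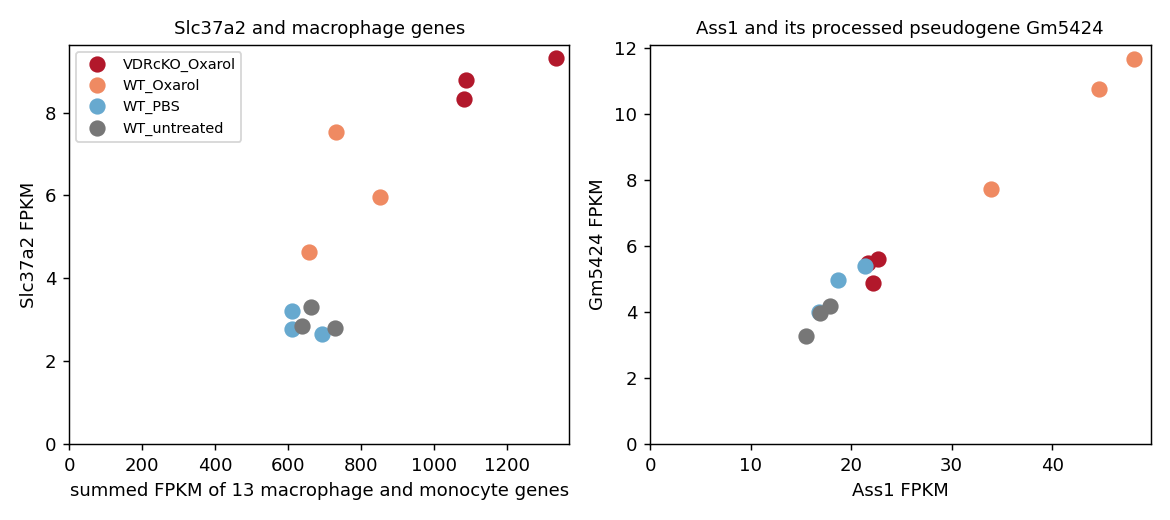
Left, Slc37a2 FPKM against the summed FPKM of 13 macrophage and monocyte genes; right, FPKM of the pseudogene Gm5424 against Ass1 FPKM; both axes linear from 0, points are the 12 libraries. VDRcKO_Oxarol is highest on both axes at left (1082 to 1336 FPKM summed), whereas at right WT_Oxarol is apart from all other libraries.

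The 250 bases before the start of Slc37a2 (chr9:37255739-37255988, minus strand, GRCm38.p6, from RefSeq) are shown beside those of Ass1. Relative to WT_Oxarol, these 2 genes went opposite ways in VDRcKO_Oxarol. Relative to the groups without ointment, both had higher values in VDRcKO_Oxarol, although Ass1 did not pass there. Capitals mark AGTTCA as it reads on the opposite strand, at position -216.
Slc37a2 upstream: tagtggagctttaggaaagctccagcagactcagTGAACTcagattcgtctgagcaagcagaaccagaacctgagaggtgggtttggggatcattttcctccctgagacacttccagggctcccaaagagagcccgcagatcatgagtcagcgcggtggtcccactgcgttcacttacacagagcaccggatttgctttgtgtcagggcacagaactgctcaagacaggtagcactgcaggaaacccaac
Each of the 2 windows thus held 1 hexamer and no direct repeat.

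No other exchanger of the SLC37 family passed between VDRcKO_Oxarol and WT_Oxarol. Slc37a3 had 9.78, 10.3 and 10.3 FPKM in VDRcKO_Oxarol and 7.89, 9.43 and 9.89 FPKM in WT_Oxarol, which overlap, with a difference of 0.15 ± 0.11 (limma, adjusted p = 0.400). Slc37a4, the exchanger that supplies glucose 6-phosphatase, differed by 0.07 ± 0.12 (limma, adjusted p = 0.735) and Slc37a1 by 0.22 ± 0.13 (limma, adjusted p = 0.263). Of 15 genes tested beside Slc37a2 in the list of this family and of glucose 6-phosphate, 2 rose in VDRcKO_Oxarol over WT_Oxarol, where 8.71% of all genes were higher. They were H6pd, the reticulum's own glucose 6-phosphate dehydrogenase, by 0.94 and Hk3, a hexokinase of myeloid cells, by 0.77. The median was 0.19, beside 0.08 for all genes.

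Against WT_untreated 5 of the 15 rose in VDRcKO_Oxarol and 0 fell, where 12.8% of all genes were higher and 6.2% lower. The median was 0.23, beside 0.08 for all genes. Hk3 rose by 0.99 ± 0.12 (limma, adjusted p = 0.00193) to 2.53, 2.18 and 1.56 FPKM in VDRcKO_Oxarol, against 0.522, 0.490 and 0.631 FPKM in WT_untreated. H6pd rose by 0.84, the glucose transporter gene Slc2a1 by 0.72, the hexokinase gene Hk1 by 0.71 and the cytosolic dehydrogenase gene G6pdx by 0.56. With median-of-ratios scaling the counts were again 5 and 0, and with quantile normalization 5 and 1. The summed macrophage genes given above were also higher in VDRcKO_Oxarol than in WT_untreated, and their part in this list was not tested. Between WT_Oxarol and either group without ointment, 0 of the 15 passed, beside 0.306% of all genes against WT_PBS and 1.31% against WT_untreated. Against WT_PBS, VDRcKO_Oxarol had 5 of the 15 higher and 0 lower, 3 higher and 1 lower of the 19 sodium genes, 1 higher of the 8 CIB genes, 2 higher and 1 lower of the 28 carnitine and peroxisome genes, and 1 higher and 1 lower of the 21 arginine genes. Of all genes, 10.8% were higher and 5.49% lower there.

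**Figure D4:**
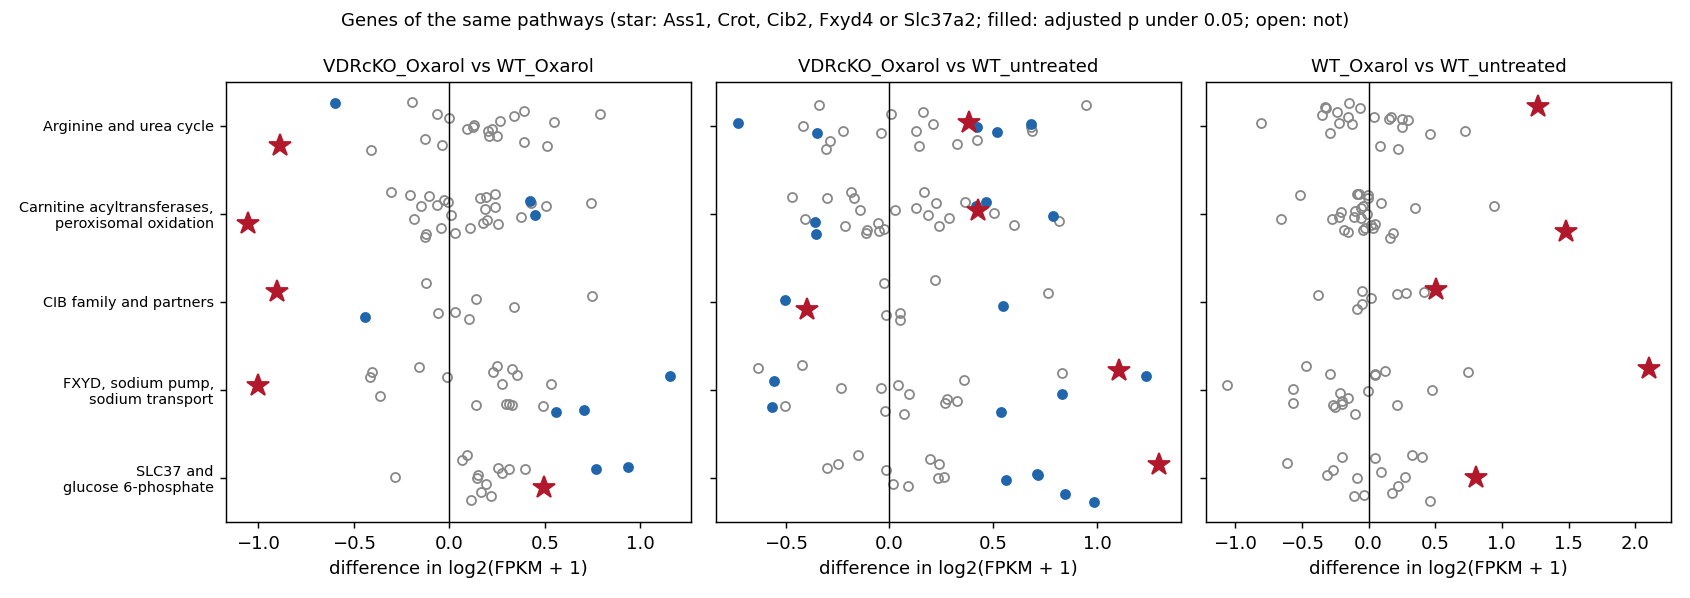
Differences in log2(FPKM + 1) for genes of the 5 pathway lists in 3 comparisons; stars are Ass1, Crot, Cib2, Fxyd4 and Slc37a2 in their lists, filled circles other genes that passed (limma, adjusted p under 0.05), open circles those that did not. In WT_Oxarol against WT_untreated, where 1.31% of all genes passed, 0 of the other listed genes did.

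Genes with the most similar course over the 12 libraries were found by the root mean square difference of log2(FPKM + 1) after centring each gene on its own mean. For Ass1 these were Gm5424 (0.08), Mfsd7a (0.16) and Slc45a4 (0.17), where the median over all genes was 0.55. Mfsd7a averaged 5.75 FPKM in VDRcKO_Oxarol, 10.9 FPKM in WT_Oxarol, 4.18 FPKM in WT_PBS and 4.35 FPKM in WT_untreated. For Crot they were 1600029D21Rik (0.24), Tslp, an epithelial cytokine (0.27), and Fam162a (0.27), with a median of 0.78. Tslp averaged 6.42 FPKM in VDRcKO_Oxarol, 17.8 FPKM in WT_Oxarol, 4.69 FPKM in WT_PBS and 6.21 FPKM in WT_untreated.

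For Cib2 the nearest genes were Cryl1 (0.15), Ttc38 (0.20) and Cbs, cystathionine beta-synthase (0.20), with a median of 0.44. For Fxyd4 they were 1600029D21Rik (0.39), Crot (0.43) and the connexin gene Gjb6 (0.46), with a median of 0.93. For Slc37a2 they were Rptn, a protein of the cornified cell (0.21), Camkv (0.21) and Ms4a6b (0.23), with a median of 0.59. Rptn averaged 5.57 FPKM in VDRcKO_Oxarol, 3.56 FPKM in WT_Oxarol, 1.76 FPKM in WT_PBS and 1.90 FPKM in WT_untreated, the same order of the upper groups as Slc37a2. These genes were picked for likeness, and their levels are a description.

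The 5 genes did not share 1 course. The closest pairs were Ass1 with Crot and Ass1 with Cib2, both at 0.36, and the farthest was Cib2 with Fxyd4 at 0.75. In FPKM, WT_Oxarol ranked first for Ass1, Crot, Cib2 and Fxyd4 and second for Slc37a2. VDRcKO_Oxarol ranked second for Ass1, Crot and Fxyd4, first for Slc37a2 and last for Cib2. Of the neighbours in these orders, VDRcKO_Oxarol and WT_PBS did not pass for Ass1, Cib2 and Fxyd4, VDRcKO_Oxarol and WT_untreated did not for Crot, VDRcKO_Oxarol and WT_Oxarol did not for Fxyd4, and WT_PBS and WT_untreated did not for any of the 5.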

How the data were processed

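RNA of ear skin from 12 libraries, 4 groups of 3 taken from the labels, was analysed. Whether replicate libraries stem from different mice is not labelled; p-values then describe only how these libraries vary, which may be technical. Per the submitters' processing notes, the tools were Cufflinks 2.1.1, TopHat2 2.0.8 and Bowtie2 2.1.0, and the build mm9. The values the authors deposited, 1 per symbol, were taken as FPKM; the file headers print no unit. Strand use is not given in the sources used here. Reference sequences and annotation are of GRCm38, so no mm9 coordinates are given.

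The 5 genes, the pathway and marker lists and the rule for named genes were chosen with earlier results of these data known. Named genes are the 5, fixed relatives, up to 4 genes per list by adjusted p, other list genes that passed where a count is small (chosen after their values were seen), and the 3 nearest genes of each. Some list genes that the rule would name are not reported here. The 14059 genes that reached 1 FPKM in 3 or more libraries were tested with limma 3.58.1 (R 4.3.3) on log2(FPKM + 1), in 1 fit of 4 group means with an intensity trend (8 residual degrees of freedom); 6 comparisons were each adjusted by Benjamini-Hochberg at 0.05. The fit was tested on simulated data. An exact permutation test of 3 against 3 libraries cannot go below 0.1 and was not used.

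Depth was estimated from genes with 1 annotated transcript, whose lowest values are worth 1 fragment; 62.1% to 68.2% of genes worth 1 to 5 fragments lay within 0.1 of a whole number. No 2 libraries held identical values. Library codes fall into 2 series, with VDRcKO_Oxarol and each replicate 3 of the wild type groups in the second; the labels do not call them batches. Transcripts of Ass1 and Gm5424 were aligned globally. Plots used matplotlib 3.10.9 under Python 3.11.15.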

Additional observations from a re-analysis of the deposited data

How the results depend on the processing

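The fit was repeated with quantile normalization or median-of-ratios scaling, with no filter or 1 at 5 FPKM, with a pseudocount of 0.1, on only the 2 groups compared, with the library code series as a term or alone, without each library and, chosen after seeing the data, with WT_PBS and WT_untreated replicates 3 left out together. No paired analysis was possible because the labels carry no replicate numbers; those used here follow the order of deposit and only name libraries. Where a value is unchanged and a call is lost, the alternative altered only the spread or the number of genes; other causes were not tested. The 5 FPKM filter dropped Fxyd4, and the first series alone left it untested.

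In VDRcKO_Oxarol against WT_Oxarol, Crot fell short at -1.07 (pseudocount 0.1), -1.06 (no filter, 2 groups, both replicates 3 left out) and -1.17 (series term). Slc37a2 fell short at 0.56 (pseudocount 0.1), 0.49 (no filter, 5 FPKM, 2 groups, both replicates 3 left out, second series alone), 0.33 (quantile), 0.41 (median-of-ratios) and 0.54 (series term; limma, adjusted p = 0.117). Fxyd4 passed at -1.17 (quantile), -1.07 (median-of-ratios) and -1.0 (both replicates 3 left out). Genes called went from 1848 to 283 with the series term and 90 in the second series alone. Against WT_PBS, Cib2 reversed to 0.042 without both replicates 3 (-0.03 reported); Crot passed at 0.68 and Fxyd4 at 0.94 with 2 groups, and Fxyd4 at 1.16 without both replicates 3; Slc37a2 fell short at 1.42 in the second series alone. Genes called were 2286, 3737 with 2 groups, 611 with the series term and 22 in the second series alone. Against WT_untreated, Cib2 fell short at -0.40 (2 groups), -0.48 (second series alone) and -0.35 (both replicates 3 left out), and Fxyd4 at 1.10 (2 groups), 0.82 (series term) and 0.66 (second series alone). Genes called were 2668, 435 with 2 groups, 1109 with the series term and 503 in the second series alone.

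In WT_Oxarol against WT_untreated, Ass1 fell short at 1.27 (2 groups) and 1.12 (first series alone), Cib2 at 0.51 (no filter, 2 groups), 0.49 (quantile), 0.46 (first series alone) and 0.55 (both replicates 3 left out), Crot at 1.48 (no filter, 2 groups, both replicates 3 left out) and 1.32 (first series alone), Fxyd4 at 2.11 (2 groups) and Slc37a2 at 0.81 (2 groups), 0.78 (first series alone, both replicates 3 left out). Genes called were 184, 90 with no filter, 12 with 2 groups, 20 in the first series alone and 57 without both replicates 3. Between WT_Oxarol and WT_PBS, Fxyd4 moved to 2.96 with a pseudocount of 0.1; genes called were 43, 0 with 2 groups (limma; 1401 at an unadjusted p under 0.05), 2 in the first series alone and 19 without both replicates 3. Between WT_PBS and WT_untreated, genes called were 1, 5 (pseudocount 0.1), 2 (no filter), 6 (2 groups), 9 (first series alone) and 7 (both replicates 3 left out).

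Scaling moved the balance of genes called higher and lower in VDRcKO_Oxarol. Against WT_Oxarol it was 1225 and 623 as reported, 820 and 1292 with quantile normalization and 826 and 1151 with median-of-ratios scaling. Against WT_PBS it was 1514 and 772, 968 and 1620, and 1037 and 1373 in the same order of settings, and against WT_untreated 1796 and 872, 1215 and 1849, and 1328 and 1359. The median of all genes was 0.08 as reported and -0.04 with quantile normalization against WT_Oxarol, and 0.08 and -0.05 against WT_untreated.

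With each library left out in turn, the lowest and highest values were as follows. In VDRcKO_Oxarol against WT_Oxarol they were -1.52 and -0.75 for Crot, -1.25 and -0.75 for Fxyd4, and 0.34 and 0.64 for Slc37a2, with 322 and 3435 genes called. Against WT_PBS they were -0.12 and 0.042 for Cib2, 0.61 and 0.75 for Crot, and 0.75 and 1.16 for Fxyd4, with 540 and 3881 genes called. Against WT_untreated they were 0.33 and 0.43 for Ass1, -0.45 and -0.35 for Cib2, 0.36 and 0.51 for Crot, and 0.94 and 1.33 for Fxyd4, with 1104 and 2905 genes called. In WT_Oxarol against WT_untreated they were 0.42 and 0.56 for Cib2, 1.18 and 1.94 for Crot, 1.85 and 2.35 for Fxyd4, and 0.66 and 0.96 for Slc37a2, with 28 and 248 genes called; against WT_PBS 4 and 128 genes were called. Between WT_PBS and WT_untreated, where no call was made for either gene, they were -0.055 and 0.38 for Fxyd4 and -0.095 and 0.023 for Slc37a2, with 0 and 5 genes called.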
